A study of Gloeophyllum trabeum and Trametes versicolor with 18 samples.

Results

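Transcript levels of the white-rot fungus *Trametes versicolor* were compared between 3 libraries from growth on high-melanin fungal necromass and 3 from growth on low-melanin fungal necromass. These 6 libraries were chosen by their labels from the 18 of a series that also holds the brown-rot fungus *Gloeophyllum trabeum*, and all transcripts were examined. Strain A1-ATF was grown in liquid Highley's medium, a defined mineral medium, and sampled after 7 days. Both necromass types were supplied at 0.45% (w/v). A further 3 libraries of the same strain on 1% (w/v) glucose gave levels on another carbon source. They also entered the choice of transcripts to test, the scaling and the estimate of the spread. All groups share the strain, the medium and the single sampling time. Which fungus the necromass came from, how much melanin it held and whether the libraries of a group were separate cultures are not stated in the sources used here, so the p-values cover only the variation among these libraries, part of which may be technical.

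Necromass is the dead mycelium that living fungi decompose. Its walls are built mainly of chitin, glucans and protein, and in many species they also carry melanin, a dark polymer of phenolic or indolic units that is linked to the wall polysaccharides and resists enzymatic attack. White-rot fungi such as *T. versicolor* are known for secreted oxidative enzymes, among them laccases and class II peroxidases, that break down the aromatic polymer lignin in wood, alongside hydrolases that act on polysaccharides. The comparison addresses which transcripts of such a fungus differ when its food is dead fungal tissue with more or with less melanin. The files and reference tables used here do not pair *T. versicolor* identifiers with gene names or functions. Transcripts are therefore described by their levels and grouped by the size and direction of their change, and 4 are named by identifier.

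The 6 necromass libraries held between 18301303 and 22805071 estimated counts, and the 3 glucose libraries between 20745703 and 26514709. Of 15606 transcripts in the tables, 13340 had enough counts to be tested, and 1604 of the 2266 left out were at 0 in all 9 libraries. Levels are given as CPM, read counts per 1000000 scaled by TMM, a normalization that assumes most transcripts do not change. Fold changes, standard errors and p-values come from edgeR's quasi-likelihood test with Benjamini-Hochberg adjustment over the 13340 transcripts, and a transcript was called at an adjusted p under 0.05. Cells of the culture were measured in bulk, so fewer cells using a gene and less RNA per cell cannot be told apart.

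The type of necromass changed the transcript profile of *T. versicolor* far beyond the differences between replicate libraries. In 9 pairs made of 1 low-melanin and 1 high-melanin library, the root mean square difference of log2 CPM ran from 1.03 to 1.12, with a mean of 1.07. It ran from 0.313 to 0.351 between the low-melanin libraries and from 0.279 to 0.329 between the high-melanin libraries. Every pair across the types was therefore more distant than every pair within a type. Expressed as shares of reads, 27.0% ± 0.84 (SD over 9 pairs) of a library's counts fell on different transcripts in the other type, against 5.16% ± 0.48 between low-melanin libraries and 5.53% ± 0.54 between high-melanin libraries (SD over 3 pairs each). Pairs share libraries, so these SDs describe the spread and do not support a test.

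High-melanin libraries lay nearer to glucose than low-melanin libraries did. Their distances to the glucose libraries ran from 1.12 to 1.20, with a mean of 1.17, and those of the low-melanin libraries from 1.22 to 1.43, with a mean of 1.30. The ranges do not overlap. The step between the necromass types, at 1.03 to 1.12, was smaller than the step from the low-melanin type to glucose, with no overlap, and touched the lower end of the step from the high-melanin type to glucose. By share of counts the order was less clear, with 31.3% ± 1.0 of counts differing between glucose and high-melanin libraries and 32.4% ± 1.1 between glucose and low-melanin libraries (SD over 9 pairs each), and these ranges overlapped. The glucose libraries were themselves more spread, from 0.345 to 0.555 in distance.

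**Figure D1:**
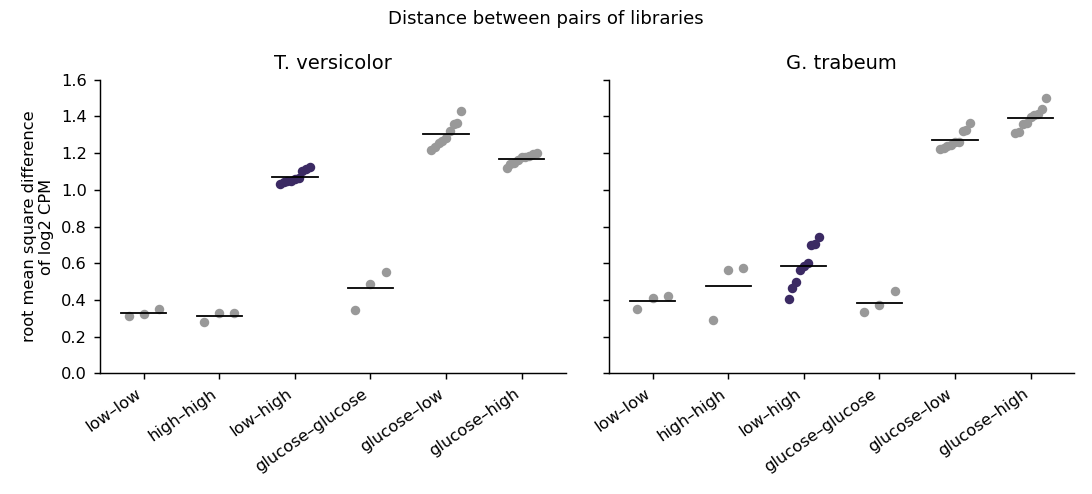
Distance between pairs of libraries, as the root mean square difference of log2 CPM over tested transcripts (y axis), by the carbon sources of the pair (x axis), in *T. versicolor* and *G. trabeum*. Each point is a pair and each line the mean of its class; the 9 low–high pairs of *T. versicolor*, at 1.03 to 1.12, stand clear of all its pairs within a necromass type.

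In *G. trabeum*, whose groups were grown and sampled in the same way with strain ATCC 11539, the same step was smaller beside its replicates. Distances between its low-melanin and high-melanin libraries ran from 0.408 to 0.742 and overlapped those within its high-melanin group, at 0.290 to 0.572. Both pairs with its high-melanin replicate 3 were at 0.566 or more, and the remaining pair was at 0.290. How far this library lowered the number of calls was not tested. By share of counts, 16.1% differed between its necromass types, against 10.8% and 12.4% within its low-melanin and high-melanin groups. In *T. versicolor* 27.0% differed between the types. Of its 10728 tested transcripts, 6.71% were called between the necromass types and 3.09% were called and changed by at least 2-fold, against 54.1% and 20.7% in *T. versicolor*. The fungi have different transcript sets and were not put in one model, so the difference between them was not tested.

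Of the 13340 *T. versicolor* transcripts, 7215 (54.1%) were called between the necromass types, with 3503 (26.3%) higher on the high-melanin one and 3712 (27.8%) lower. Most of these changes were small. A change of under 2-fold was found for 4449 of them, or 61.7%, and the median size of a called change was 0.81 on the log2 scale, with a median standard error of 0.15 over all transcripts. The 3 libraries of one type did not overlap in CPM with the 3 of the other for 7137 of the called transcripts, or 98.9%, while 67.9% of all tested transcripts showed no such overlap. Among the 6125 transcripts not called, the median size of change was 0.19. A fold change of at least 2 was fitted for 88 of these, at a median level of 0.634 CPM. When libraries were scaled by their size alone, 62.8% of called transcripts were higher on high-melanin necromass, against 48.6% with TMM, and the median log2 fold change over the tested transcripts was 0.17 in place of -0.01. Directions of small changes are therefore relative to the scaling.

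The balance of directions differed with the size of the change. Under 2-fold, 1927 called transcripts were higher and 2522 lower on high-melanin necromass with TMM, and 2623 and 1835 by library size alone, so the scaling sets the balance of small changes. By at least 2-fold, 1576 transcripts (11.8%) rose and 1190 (8.92%) fell on high-melanin necromass, of which 2752 of 2766 had no overlap between the types. By library size alone these counts were 1932 and 867, a ratio of 2.23 in place of 1.32. By at least 4-fold, 609 rose and 229 fell, a ratio of 2.66. By at least 16-fold, 96 rose (0.720% of those tested) and 26 fell (0.195%), so that 78.7% of the changes of that size were increases. The counts past 16-fold ranged from 88 to 114 higher and from 20 to 29 lower over all the alternative analyses. Some of these folds rest on very few reads. Of the 96, 14 had at most 3 counts in each low-melanin library, 2 of them with none at all, and of the 26, 1 was at 0 in every high-melanin library. With transcripts that close to 0 left aside, 82 rose and 25 fell by at least 16-fold. A test for changes beyond 2-fold, which is stricter than a fold cut-off on called transcripts, called 925 higher and 581 lower.

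**Figure D2:**
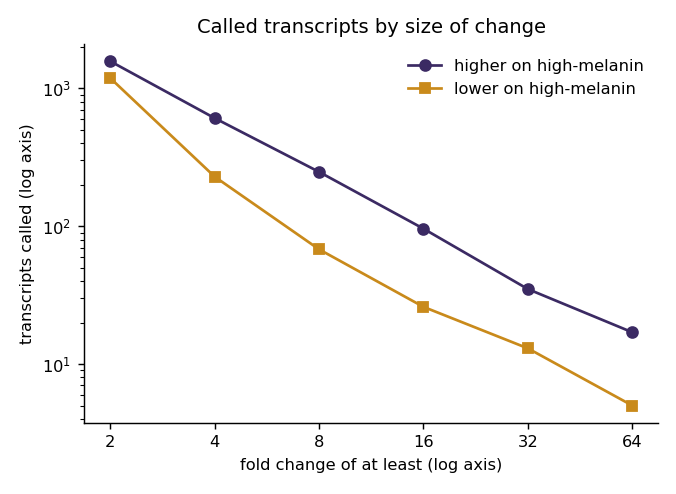
Number of transcripts called between the necromass types (y axis, log scale) whose fold change was at least the value on the x axis (log scale), for each direction. The lines start close together at 2-fold (1576 higher, 1190 lower) and part by 4-fold (609 and 229).

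The balance of increases and decreases also shifted along the range of abundance, although both were most numerous at 10 to 100 CPM. That band held 6250 of the 13340 tested transcripts. In it 691 transcripts (11.1%) rose and 501 (8.02%) fell by at least 2-fold, against 11.8% and 8.92% of all tested. Of the 750 transcripts under 1 CPM, 12.7% rose and 6.53% fell by at least 2-fold. Among transcripts with a mean of 1 to 10 CPM over the 9 libraries, 14.2% rose and 7.04% fell by at least 2-fold on high-melanin necromass. Among those at 100 to 1000 CPM the order was turned with TMM, with 9.58% rising and 14.2% falling. Of the 92 transcripts at 1000 CPM or more, 10 rose and 31 fell by at least 2-fold, or 10.9% and 33.7%, and 77.2% were called in either direction. The median log2 fold change went from 0.15 in the band of 1 to 10 CPM to -0.54 in the band above 1000 CPM. The value above 1000 CPM exceeds in size the shift of 0.17 that scaling by library size alone adds to all transcripts. At 100 to 1000 CPM the median was -0.23, nearer in size to that shift. Whether the turned order there remains with that scaling was not tested. On high-melanin necromass 87 transcripts reached a mean of 1000 CPM, against 117 on the low-melanin type. Without TMM these counts were 88 and 104.

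**Figure D3:**
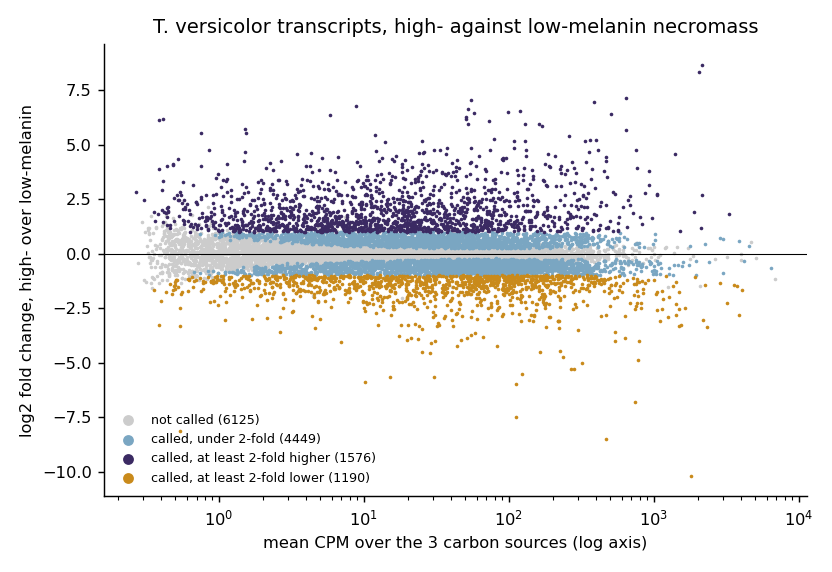
Log2 fold change of high-melanin over low-melanin necromass (y axis) against mean CPM over the 3 carbon sources (x axis, log scale) for 13340 transcripts. Colours mark the 1576 transcripts called at least 2-fold higher, the 1190 called at least 2-fold lower, the 4449 called with smaller changes and the 6125 not called; large increases occur at all levels, and decreases outnumber increases above 1000 CPM.

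The same held when abundance was ranked per length. Of the 100 transcripts with the highest mean TPM over the 6 necromass libraries, 31 were called higher and 47 lower on high-melanin necromass, 18 and 28 of them by at least 2-fold. Their median log2 fold change was -0.36, against -0.01 over all transcripts. Of the leading 1000, 288 were called higher and 442 lower, 121 and 165 of them by at least 2-fold. Over all tested transcripts, 26.3% were called higher and 27.8% lower. The median log2 fold change of the leading 1000 was -0.20, close in size to the shift of 0.17 from scaling by library size alone. Whether their excess of decreases remains with that scaling was not tested. The 10 most abundant transcripts of each library took 6.98%, 7.11% and 6.72% of counts in low-melanin replicates 1 to 3 and 6.50%, 6.52% and 6.27% in high-melanin replicates 1 to 3. The 100 most abundant took 24.8%, 24.3% and 23.4% on the low-melanin type and 21.4%, 21.4% and 20.8% on the high-melanin type. No low-melanin value overlaps a high-melanin one. Among transcripts with whole counts only, the leading 10 held on average 6.83% and 6.79%, so that little of the difference remained for these 10. In an exact two-sided permutation test p was 0.1 for both, which is the smallest that 3 libraries against 3 allow, so neither can pass 0.05.

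The reads that moved were spread over many transcripts. Over the means of the types, 26.7% of counts went from transcripts with a larger share on the low-melanin type to transcripts with a larger share on the high-melanin type. Of the loss, 50% was carried by 116 transcripts and 16.2% by the leading 10. Of the gain, 50% was carried by 166 transcripts and 14.1% by the leading 10. Transcripts called at least 2-fold lower made up 65.6% of the loss and those called at least 2-fold higher 60.5% of the gain, which describes the size of the change and is no further test of it.

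The glucose libraries entered the choice of these transcripts through the filter for low counts, the scaling and the estimate of the spread. In a fit of only the 6 necromass libraries, 13113 transcripts were tested, with 1633 called at least 2-fold higher and 1116 lower. Levels on glucose placed the groups differently. The 1190 transcripts at least 2-fold lower on high-melanin necromass had median levels of 64.2, 61.2 and 57.9 CPM in low-melanin replicates 1 to 3, and of 18.8, 19.1 and 17.5 CPM in high-melanin replicates 1 to 3. On glucose their medians were 18.8, 20.7 and 19.6 CPM. With TMM the glucose and high-melanin medians overlap and the low-melanin ones stand alone, about 3 times as high. By the group's share of tested counts, which does not depend on scaling, glucose lay between the types. The shares were 26.2%, 26.3% and 24.9% on the low-melanin type, 8.37%, 8.50% and 8.06% on the high-melanin type and 13.5%, 16.6% and 15.4% on glucose. By median CPM, the 26 transcripts at least 16-fold lower were set apart most clearly by their level on low-melanin necromass. Their medians were 324.1, 324.5 and 448.3 CPM on the low-melanin type, 9.58, 5.43 and 4.39 CPM on the high-melanin type and 5.79, 13.2 and 11.7 CPM on glucose. For 22 of the 26, the glucose level was nearer to the high-melanin level on the log2 scale, and for none did it lie above both necromass levels.

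The 1576 transcripts at least 2-fold higher on high-melanin necromass had an intermediate level on glucose. Their medians were 22.1, 21.9 and 21.6 CPM in high-melanin replicates 1 to 3, 4.98, 5.42 and 5.53 CPM in low-melanin replicates 1 to 3 and 12.6, 10.3 and 11.6 CPM on glucose. The 3 carbon sources do not overlap. The group thus holds transcripts that were higher on the high-melanin type than on glucose together with transcripts that were lower on the low-melanin type than on glucose. By mean log2 CPM, the glucose level lay between the necromass levels for 836 of them (53.0%), above both for 460 (29.2%) and below both for 280 (17.8%). Of the 1190 lower transcripts, glucose lay between for 509 (42.8%), above both for 226 (19.0%) and below both for 454 (38.2%), and for 1 it equalled one of them to the precision kept. The 96 transcripts at least 16-fold higher kept the intermediate pattern, with medians of 96.7, 91.8 and 89.6 CPM on the high-melanin type, 2.34, 2.73 and 3.10 CPM on the low-melanin type and 14.2, 13.7 and 14.5 CPM on glucose.

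**Figure D4:**
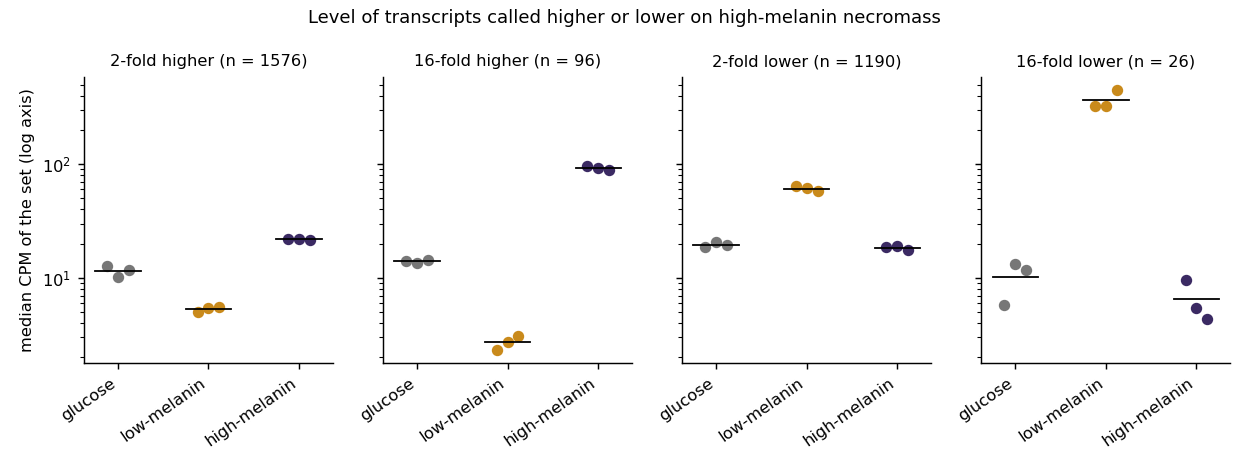
Median CPM (y axis, log scale) of the transcripts called at least 2-fold or at least 16-fold higher or lower on high-melanin necromass, in each library of each carbon source (x axis, points in the order of replicates 1 to 3, lines at the means). Glucose lies between the necromass types for the higher groups and close to high-melanin necromass for the lower groups.

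Over all transcripts, the glucose level was nearer to the high-melanin than to the low-melanin level for 57.2%, with no regard to calls. The share was 59.8% among those at least 2-fold higher and 63.9% among those at least 2-fold lower. It grew with the size of the decrease, from 61.6% of 961 transcripts lower by 2-fold to 4-fold to 72.4% of 203 lower by 4-fold to 16-fold and 84.6% of the 26 lower by more. Among increases it stayed between 57.3% and 60.0% over the same steps. With scaling by library size alone the shares were 66.3% for the higher and 59.4% for the lower transcripts, which turns their order.

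The transcript that gained the most CPM was jgi.p|Traver1|4700, which is 465 bases long. Its levels were 5732, 8179 and 5160 CPM in high-melanin replicates 1 to 3, against 13.1, 15.3 and 18.4 CPM on the low-melanin type and 15.04, 19.3 and 26.6 CPM on glucose. Only the high-melanin libraries held it at a high level, and low-melanin and glucose libraries overlap. Per length it stood among the most abundant transcripts of the fungus on high-melanin necromass, with 13190, 18465 and 12759 TPM and rank 9, 5 and 8 in replicates 1 to 3. Its rank was 4207, 3638 and 3352 on the low-melanin type. From low to high melanin its log2 fold change was 8.67 ± 0.31 (SE, adjusted p = 1.22e-09 in edgeR), and its largest adjusted p over the alternatives was 8.44e-08.

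Transcript jgi.p|Traver1|12457, 1101 bases long, gained nearly as much. It stood at 9086, 4335 and 4833 CPM on the high-melanin type, at 18.3, 16.1 and 22.6 CPM on the low-melanin type and at 4.96, 13.7 and 4.03 CPM on glucose. The types did not overlap, and every low-melanin library was above every glucose library. The log2 fold change was 8.32 ± 0.61 (SE, adjusted p = 5.93e-06 in edgeR). Replicate 1 held about as many reads of it as the other high-melanin libraries together, 207262 estimated counts against 95769 and 90331, and without that library the log2 fold change was 7.91.

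Transcript jgi.p|Traver1|9732, 1071 bases long, was abundant on low-melanin necromass and scarce on the other carbon sources. It was at 5500, 6081 and 4511 CPM in low-melanin replicates 1 to 3, at 11.97, 0.905 and 0.696 CPM in high-melanin replicates 1 to 3 and at 1.40, 12.8 and 5.10 CPM on glucose. By rank of TPM it was 27, 23 and 33 on the low-melanin type and 8136, 12936 and 13072 on the high-melanin type. The log2 fold change was -10.18 ± 1.48 (SE, adjusted p = 0.00117 in edgeR). High-melanin replicate 1 held 273 counts of it against 20 and 13 in replicates 2 and 3, and without replicate 1 the log2 fold change was -12.69.

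The largest loss of CPM was that of jgi.p|Traver1|475, 1224 bases long, which lost its high level only in part. It was at 10352, 10604 and 9276 CPM on the low-melanin type, where it took 0.913%, 0.955% and 0.855% of all counts, and at 2204, 1184 and 883 CPM on the high-melanin type. On glucose it was at 2.07, 31.4 and 9.35 CPM, so both necromass types held it far above glucose and the low-melanin type most of all. From low to high melanin its log2 fold change was -2.82 ± 0.85 (SE, adjusted p = 0.0276 in edgeR). Its estimated count missed a whole number in high-melanin replicates 1 and 2, at 50284.7 and 26159.9, and was whole in the other 7 libraries, so a part of its reads, not measured here, was shared with a similar transcript. The types did not overlap, but the call was near the threshold. It was lost without low-melanin replicate 1, 2 or 3 (adjusted p = 0.0571, 0.0606 and 0.0605 in edgeR) and without high-melanin replicate 2 or 3 (adjusted p = 0.0802 and 0.0647), while the log2 fold change stayed between -2.88 and -2.57 in these fits. Without glucose replicate 1, 2 or 3 the adjusted p was 0.00662, 0.00514 and 0.0322 in edgeR. The adjusted p was 0.00259 in a fit of only the 6 necromass libraries and ran from 0.00105 to 0.164 over the alternatives. With fragment length as a covariate its log2 fold change was -2.06.

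**Figure D5:**
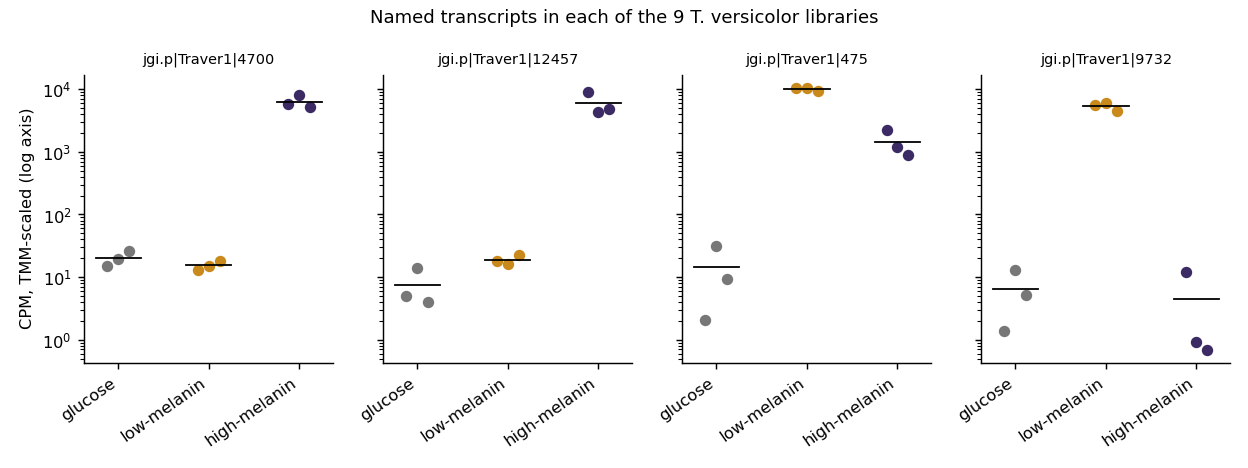
CPM (y axis, log scale) of the 4 named transcripts in each of the 9 *T. versicolor* libraries, by carbon source (x axis, points in the order of replicates 1 to 3, lines at the means). The first pair is high on high-melanin necromass only, and the second pair is highest on low-melanin necromass, with jgi.p|Traver1|475 also well above glucose on the high-melanin type.

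Other transcripts with large gains and losses followed several patterns. Among the 10 that gained the most CPM, the third stood at 550 ± 125 CPM on glucose, 2056 ± 177 on the low-melanin type and 7242 ± 752 on the high-melanin type (SD, n = 3), a stepwise rise. The seventh stood at 1781 ± 616, 98.1 ± 21 and 2327 ± 144 CPM on the respective sources, so that it was low on the low-melanin type alone. The tenth stood at 29.1 ± 13, 13.2 ± 3.7 and 1871 ± 226 CPM, a pattern like that of jgi.p|Traver1|4700. Of the 10 that lost the most, 6 had a mean under 30 CPM on glucose. The third, for example, was at 7.61 ± 7.8 CPM on glucose, 5839 ± 553 on the low-melanin type and 708 ± 255 on the high-melanin type (SD, n = 3). The other 4 were already at 359 CPM or more on glucose, such as the sixth, at 2984 ± 847, 6094 ± 528 and 2151 ± 92 CPM. All of them were called, with no overlap between the types, as the rule for choosing them requires.

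High-melanin replicate 1 kept more of the transcripts that were nearly lost on this necromass. Of the 26 transcripts at least 16-fold lower, 14 were highest in replicate 1 among the high-melanin libraries, or 53.8%, against 30.1% of all transcripts. Replicate 2 was the highest for 8 and replicate 3 for 4. Among the 1190 at least 2-fold lower, replicate 1 was the highest for 27.6%, so the pattern did not extend to smaller decreases. There replicate 2 was the highest for 44.3%, against 33.5% of all transcripts. On the other side, low-melanin replicate 3 was the highest of its group for 46 of the 96 transcripts that rose by at least 16-fold, or 47.9%, against 28.8% of all transcripts, and replicate 1 for 15.6%. Leaving out any one of the 6 necromass libraries kept at least 96.9% of the 2766 calls of at least 2-fold in their direction.

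Transcripts with large changes were often next to each other in the numbering of the identifiers. Whether that numbering follows the order of genes on the genome is not stated in the sources used here. Of 1431 transcripts at least 2-fold higher whose next number was also tested, 353 were followed by another of the same kind, or 24.7%, while 11.8% of all transcripts were of that kind. Only 6.43% were followed by one at least 2-fold lower, against 8.92% of all. Of 1100 transcripts at least 2-fold lower, 192 were followed by another, or 17.5%, against 8.92%. For the 16-fold changes the shares followed by a 2-fold change in that direction were 35.7% of 84 higher and 37.5% of 24 lower transcripts.

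Unbroken runs of at least 3 numbers in one direction held 228 of the higher transcripts (14.5%), in 60 runs. They held 92 of the lower ones (7.73%), in 27 runs. Some runs would arise with 11.8% and 8.92% of all transcripts of these kinds, and how many was not computed. The longest run of increases had 10 transcripts, with log2 fold changes between 1.54 and 3.82 and means between 1.55 and 721 CPM on the high-melanin type. The longest run of decreases had 7, with log2 fold changes between -7.48 and -1.18. Its means lay between 1.84 and 334 CPM on the low-melanin type, between 0.793 and 5.72 CPM on the high-melanin type and between 0.544 and 8.20 CPM on glucose. No transcript of these longest runs had counts divided between similar transcripts. Such counts occurred in 19 of the 60 and 4 of the 27 runs. With all transcripts of that kind left out, the shares followed by another were 23.6% and 17.1%, in an alternative chosen after the data were seen.

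Coding lengths were similar between the groups of changed transcripts and all transcripts, and large decreases were less frequent among long ones. Lengths divide by 3 for 99.6% of the models, so length here is coding length. The median was 1125 bases for transcripts at least 2-fold higher, 1056 for those at least 2-fold lower and 1153.5 over all tested. Transcripts of 2000 bases or more held fewer large changes, with 9.81% higher and 5.89% lower, than those of 500 to 1000 bases, with 12.6% and 10%. Below 500 bases, 10.1% were higher and 10.7% lower. Counts divided between similar transcripts were found for 10.6% of the higher and 8.07% of the lower transcripts, against 6.66% of all tested. They were found for 9 of the 96 transcripts at least 16-fold higher (9.38%) and for 5 of the 26 at least 16-fold lower (19.2%), whose levels are uncertain in this way. Mean fragment lengths were 249 to 274 bases in low-melanin and 267 to 293 in high-melanin libraries, and with fragment length as a covariate 98.2% of the 2-fold calls were kept in their direction.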

How the data were processed

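Per the labels' protocols, TRIzol and a PureLink kit were used for RNA extraction and a NEBNext Ultra II kit for library preparation. The authors deposited 1 table per library with estimated counts and TPM per transcript, the transcript length and the effective length, in the format of kallisto. Kallisto 0.51.1 and DESeq2 1.48.2 are named in the submitters' processing notes. The transcript set, genome build and strand setting are not given in the sources used here. Kallisto divides reads between similar transcripts, and a transcript with an estimated count that missed a whole number by over 0.01 in at least 1 of the 9 libraries was taken to share reads. Such counts made up 2.55% to 3.52% of a library.

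The deposited estimated counts were rounded, filtered with filterByExpr (13340 transcripts kept, with at least 99.9854% of each library's counts) and scaled with TMM. The 9 *T. versicolor* libraries were fitted in 1 model with carbon source as the only term, in edgeR 4.0.16 (robust glmQLFit and glmQLFTest) under R 4.3.3. The standard error is the absolute log2 fold change over the square root of F. Distances and placements were computed on log2 CPM (prior count 2). The deposited TPM values served only to rank levels per length. Mean fragment length is the largest difference between length and effective length in a library. The test was tested on simulated counts with known changes. Alternatives used limma 3.58.1 and DESeq2 1.42.0, other scalings, filters, covariates and sets of libraries. All libraries were counted as replicates. No pair of libraries of a group agreed within sampling noise (chi-square per degree of freedom of 17.1 or more), which cannot show that they were separate cultures.

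The members, lists and tests were chosen with earlier results of these data known. Named transcripts are the 2 each way with the largest difference in mean CPM among those called, changed by at least 2-fold and with no overlap between the necromass types. The unnamed transcripts given by rank follow the same rule but were chosen after their values were seen. Lists of genes by function could not be made, because identifiers are not paired with functions in the files or reference tables used here.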

Additional observations from a re-analysis of the deposited data

How the results depend on the processing

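Of 126 recomputed counts of calls, 122 were within 1.5 times the reported count, which does not say that the balance of directions was kept. Of 83 values of named transcripts, 76 kept their direction and side of the threshold, and of 86 other values, 70 moved by less than their spread. The test beyond 2-fold called 925 transcripts higher and 581 lower, and by its construction the counts of at least 2-fold are the same 925 and 581. Leaving out 1 of the 9 libraries gave 2979 to 3918 higher and 3162 to 4166 lower calls, 1515 to 1608 and 1142 to 1214 by at least 2-fold, and 94 to 114 and 22 to 29 by at least 16-fold. The log2 fold changes ran from 8.45 to 8.80 for jgi.p|Traver1|4700, 7.91 to 8.52 for jgi.p|Traver1|12457, -12.69 to -9.70 for jgi.p|Traver1|9732 and -3.29 to -2.57 for jgi.p|Traver1|475. The last was not called in the test beyond 2-fold, at -2.82 (adjusted p = 0.164 in edgeR), nor with the replicate number as a replicate block, at -2.82 (adjusted p = 0.0535); the cause was not tested. The replicate block called 6852 transcripts in place of 7215 and changed no other named call. Deviations of low-melanin and high-melanin libraries with the same number correlated at 0.03, -0.02 and 0.03 across transcripts. Those with different numbers correlated at -0.06 to 0.04. With 3 libraries per group such values cannot decide whether a number marks a shared batch, and the labels do not say so.

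By share of TPM, the 10 most abundant transcripts held 23.1% on the low-melanin and 18.6% on the high-melanin type, and the 100 most abundant 42.1% and 39.1%. With only whole-count transcripts the leading 10 held 6.79% on the high-melanin and 6.83% on the low-melanin type. Without 1 library the shares ran from 6.85% to 7.05% and 6.38% to 6.51% for 10, and from 23.8% to 24.5% and 21.1% to 21.4% for 100. A prior count of 0.5 moved the mean distance within low-melanin libraries to 0.375 and that between the types to 1.10. With transcripts of at least 10 CPM only, distances were 0.212 and 0.217 within the low-melanin and high-melanin types, 1.11 between them and 1.26 from glucose to high-melanin, against 1.37 from glucose to low-melanin. Without 1 necromass library, distances ran from 0.313 to 0.351 and 0.279 to 0.329 within the types, 1.05 to 1.09 between them, 1.28 to 1.32 from glucose to low-melanin and 1.16 to 1.18 to high-melanin. Scaling by library size alone gave the shares nearer to glucose in the report, 66.3% and 59.4%. With it 27.1% of higher transcripts were followed by another in place of 24.7%, while 1932 of 13340 were of that kind in place of 1576. For lower transcripts the share was 15.8% in place of 17.5%, with 867 of that kind in place of 1190. Without 1 glucose library the shares nearer to glucose ran from 57.7% to 62.4% and 61.9% to 65.1%. The percent of counts differing ran from 26.5% to 27.4% without 1 necromass library. Depth limited transcripts under 1 CPM, of which 20.4% were called.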
